A study of Saccharomyces cerevisiae with 24 samples.

Results

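The 9 genes described here encode the machinery that switches on the kinase Gcn2 at the ribosome, together with Gcn4 and Mbf1, which act downstream of it. They were chosen by name from the 5912 genes listed in the deposited quantification files: GCN1, GCN20 and GCN2, the regulators YIH1, GIR2, RBG1 and RBG2, and the effectors GCN4 and MBF1. All 9 passed the filter on low counts, which 5824 genes passed in all. Messenger RNA was sequenced from BY4741, a haploid MATa laboratory strain of Saccharomyces cerevisiae, in YPD rich medium. The strains were gcn2Δ::KAN, gcn4Δ::KAN, mbf1Δ::NAT and wild type, each given methyl methanesulfonate (MMS) at 0.1% for 1 h or left untreated. MMS is a methylating agent that damages RNA as well as DNA. Each of the 8 groups held 3 biological replicates (n = 3 throughout), which gives 24 libraries. All strains share the BY4741 background, which is known as an auxotroph for histidine, leucine, methionine and uracil, and 1 dose and 1 time were sampled. A gene was not read in the strain that lacks it.

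Gcn2 phosphorylates the translation factor eIF2 when uncharged tRNA or collided ribosomes are sensed. This lowers general initiation and raises translation of the GCN4 mRNA through its upstream open reading frames. Gcn1, a very large HEAT-repeat protein, sits on ribosomes with its ABC ATPase partner Gcn20 and holds Gcn2 through an RWD domain. Yih1 and Gir2 carry RWD domains of their own and bind the same part of Gcn1, so that they can compete with Gcn2. Gir2 is also the partner of the ribosome-bound GTPase Rbg2, and Rbg1 is the related GTPase whose partner is Tma46. Gcn4 is the bZIP activator of amino acid biosynthesis genes, and Mbf1 bridges Gcn4 to the TATA-binding protein and also acts on stalled ribosomes. The values here are mRNA levels and do not show translation or eIF2 phosphorylation.

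Total estimated counts per library ran from 13518147 to 28366559. In the strain that lacks it, each deleted gene kept no more than 1.22 CPM (counts scaled to library size) for GCN2, 30.9 CPM for GCN4 and 2.82 CPM for MBF1. The MATa receptor gene STE2 was at 449 to 1002 CPM over all libraries and the MATα receptor gene STE3 at 3.56 to 11.9 CPM. LEU2, which BY4741 lacks, was at most 1.1 CPM, MET17 and URA3 did not pass the filter, and HIS3, of which BY4741 lacks only an internal stretch, was at 33.1 to 170.5 CPM. Genes of the ribosomal RNA locus took 0.336 to 1.48% of counts in the 6 gcn4Δ libraries, against 6.80 to 17.7% in the other 18. All 6 gcn4Δ response differences called below were also called with these genes left out of the fit. That refit drops only the counts of these genes, and the part of the lower share in the gcn4Δ results was not tested. Among MMS-treated mbf1Δ libraries, replicate 1 stood apart, with 8.85% from this locus against 17.3% and 17.7%. Untreated mbf1Δ replicate 1 also stood apart, with 8.16% against 12.8% and 13.5%. Untreated wild type replicate 3 had 10.6% against 16.9% and 15.6%. The library scaling also matters: TMM-scaled CPM, used for all changes below, holds the bulk of genes level, while on the deposited TPM (transcript abundance corrected for length and library size) the median of all genes was higher after MMS by 0.56 in gcn2Δ, 0.54 in gcn4Δ, 0.67 in mbf1Δ and 0.55 in wild type on the log2 scale. Total mRNA per cell was not measured, so every change is relative to the other genes, and fewer cells expressing a gene cannot be told apart from less RNA per cell.

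Per length, the members spanned a wide range in wild type cells. In MMS-treated wild type MBF1 averaged 1131 ± 68.8 TPM (SD), GCN4 697 ± 15.2, GCN20 122 ± 1.91, GCN1 70.6 ± 5.73 and YIH1 43.8 ± 5.90 TPM. RBG1 followed at 31.4 ± 1.55 TPM, then RBG2 at 22.5 ± 2.70, GCN2 at 19.7 ± 1.59 and GIR2 at 19.6 ± 3.16 TPM, and the libraries of RBG2 and GCN2, and of GCN2 and GIR2, overlapped. In untreated wild type the order was GCN4 at 770.1 ± 124 TPM, MBF1 at 276 ± 18.3, RBG1 at 125 ± 15.6, GCN1 at 109 ± 5.15, GCN20 at 94.4 ± 9.39, YIH1 at 54.0 ± 5.86, GIR2 at 53.2 ± 13.7, RBG2 at 49.6 ± 3.79 and GCN2 at 14.2 ± 2.87 TPM. There RBG1 overlapped GCN1, YIH1 overlapped GIR2, and GIR2 overlapped RBG2, while the kinase mRNA was the least abundant and did not overlap RBG2. MBF1 thus stood above GCN4 in MMS-treated libraries and below it in untreated ones. RBG1 ranked below GCN1, GCN20 and YIH1 after MMS and above them without it.

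**Figure D1:**
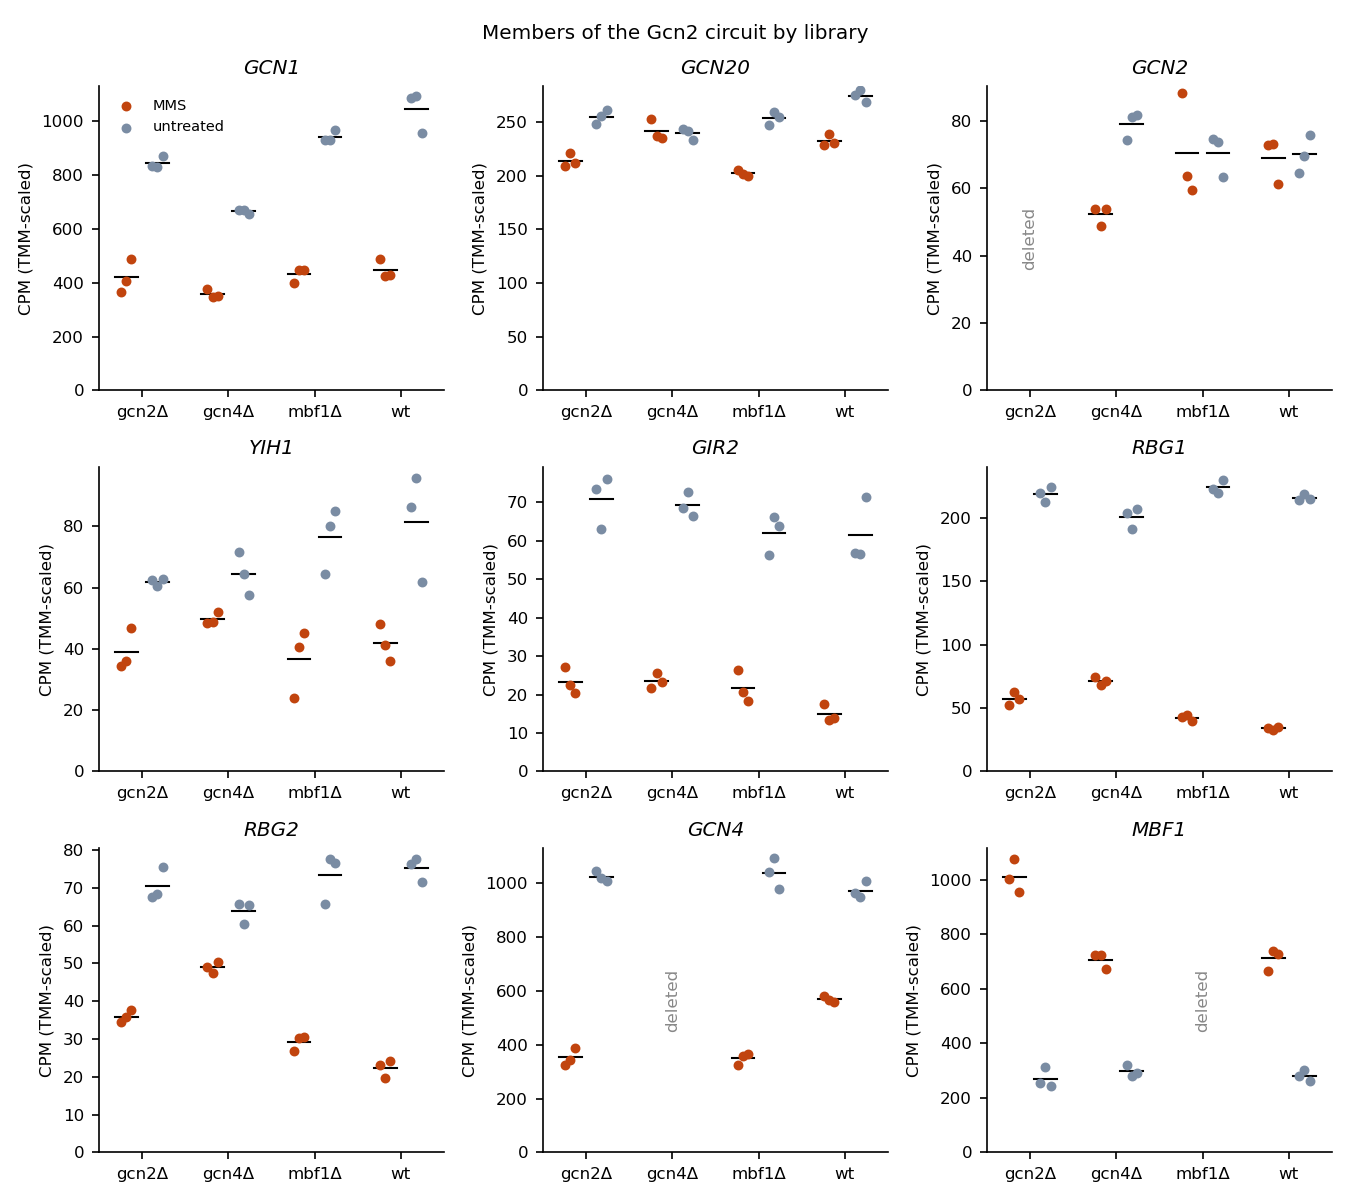
TMM-scaled CPM (y axis, linear, from 0) of the 9 genes in each library, for gcn2Δ, gcn4Δ, mbf1Δ and wild type (x axis), with MMS-treated libraries (orange) left of untreated ones (grey-blue); points are the 3 replicates and black lines their means. RBG1 after MMS lies at 68.5 to 74.2 CPM in gcn4Δ and at 32.7 to 35.1 CPM in wild type, and the strain's own deleted gene is left out.

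In wild type cells MMS lowered most of the Gcn2 circuit and raised MBF1. Of the 9 members, 7 were lower (RBG1, GIR2, RBG2, GCN1, YIH1, GCN4 and GCN20), MBF1 was higher and GCN2 was not called, by edgeR's quasi-likelihood test at an adjusted p under 0.05. The response to MMS was broad: 83.1% of all tested genes were called in wild type, 41.2% as lower and 42% as higher, so being called is itself near the background. In gcn2Δ, 7 of 8 members were lower and MBF1 higher, against 40.4% of genes lower and 41.4% higher (81.7% called). In gcn4Δ, 5 of 8 were lower, MBF1 was higher and GCN20 and YIH1 were not called, against 42.6% lower and 40.7% higher (83.3% called). In mbf1Δ, 7 of 8 were lower and GCN2 was not called, against 40.1% lower and 42.7% higher (82.9% called). The median change of the members was -0.99 in gcn2Δ, -0.49 in gcn4Δ, -1.23 in mbf1Δ and -0.95 in wild type in log2 terms. Over all tested genes it was 0.027 in gcn2Δ, -0.019 in gcn4Δ, 0.048 in mbf1Δ and 0.025 in wild type. On the TPM scale the sign was the other way for GCN2 and GCN20 in wild type, GCN20 and YIH1 in gcn2Δ, RBG2 and YIH1 in gcn4Δ, and GCN20 in mbf1Δ.

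**Figure D2:**
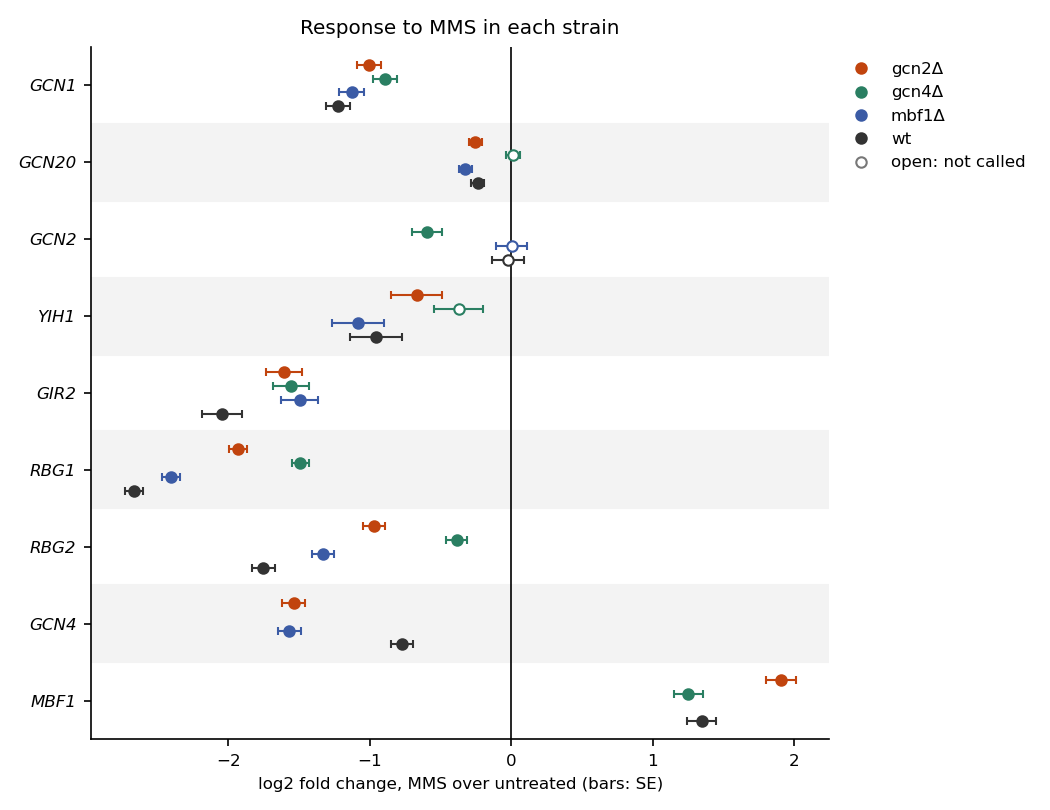
Log2 fold change of MMS over untreated (x axis; bars are SE) for each gene (rows) in gcn2Δ, gcn4Δ, mbf1Δ and wild type, from edgeR; filled points passed an adjusted p of 0.05 and open points did not. RBG1 has the lowest value of the plot, -2.67 in wild type, and MBF1 in gcn2Δ the highest, 1.90.

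The ribosome-bound scaffold GCN1 (YGL195W, chromosome VII, 131525 to 139543, plus strand, R64) fell after MMS in every strain, by 2.01-fold in gcn2Δ, 1.86-fold in gcn4Δ, 2.19-fold in mbf1Δ and 2.34-fold in wild type. It had 365, 406 and 489 CPM in MMS-treated gcn2Δ cells, against 834, 828 and 870.3 CPM in untreated gcn2Δ cells. In gcn4Δ the values were 377, 347 and 349.7 CPM with MMS and 669, 669 and 655 CPM without it. In mbf1Δ they were 399.7, 445 and 445 CPM with MMS and 929, 928 and 965 CPM without it. In wild type they were 486, 425 and 427 CPM with MMS and 1083, 1092 and 955 CPM without it. No treated library reached an untreated one in any strain. Untreated gcn4Δ libraries lay below all untreated wild type libraries (log2 difference -0.65, SE 0.085, adjusted p = 2.62e-05), and treated gcn4Δ below all treated wild type libraries (-0.32, SE 0.085, adjusted p = 0.00412). On the TPM scale those gaps were -0.20 (adjusted p = 0.0564) and 0.14 (adjusted p = 0.162), so the treated one had the other sign. The wild type fall was -1.23, SE 0.086, adjusted p = 7.57e-12, and the response in gcn4Δ was smaller by 0.33 (SE 0.12, adjusted p = 0.0353). That difference was 0.30 to 0.40 with 1 library left out, and the call was lost without untreated wild type replicate 1 or 2, treated wild type replicate 2 or 3, or any untreated gcn4Δ replicate. In gcn2Δ the difference from the wild type response was 0.22 (SE 0.12, adjusted p = 0.169), and 0.34 (adjusted p = 0.0221) without treated gcn2Δ replicate 1.

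GCN20 (YFR009W, chromosome VI, 162488 to 164746, plus strand), the ATPase bound to Gcn1, changed far less than its partner. It had 228, 239 and 230.4 CPM in treated wild type cells, against 275, 279.7 and 269 CPM in untreated ones, a fall of 1.18-fold (log2 -0.24, SE 0.047, adjusted p = 8.17e-05). In gcn4Δ the treated values of 253, 237 and 236 CPM overlapped the untreated values of 244, 242 and 233 CPM, and the response there was 0.013, SE 0.047, adjusted p = 0.805. The difference between the gcn4Δ and the wild type response was 0.25 (SE 0.067, adjusted p = 0.00545). By limma on TPM it was 0.27 and not called (adjusted p = 0.25). In gcn2Δ the response was -0.25 (SE 0.047) and in mbf1Δ -0.33 (SE 0.047), with no overlap between treated and untreated libraries. These falls were smaller than the shift between scales: on TPM the response was 0.36 in gcn2Δ, 0.38 in mbf1Δ and 0.37 in wild type, all above 0. In gcn4Δ the response was 0.63 on TPM (adjusted p = 1.38e-05) and 0.14 on TPM centred on the median gene (adjusted p = 0.00795), both called by limma.

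The kinase mRNA GCN2 (YDR283C, chromosome IV, 1025070 to 1030049, minus strand) fell in gcn4Δ and was not called in wild type (log2 -0.022, SE 0.11, adjusted p = 0.858). Treated gcn4Δ cells had 53.8, 48.9 and 53.9 CPM, against 74.2, 81.0 and 81.7 CPM in untreated gcn4Δ cells, with no overlap (log2 -0.60, SE 0.11, adjusted p = 2.88e-05). Treated wild type cells had 72.7, 73.1 and 61.3 CPM, against 64.5, 69.6 and 75.9 CPM in untreated ones, and these overlapped. In mbf1Δ the values were 88.3, 63.5 and 59.4 CPM with MMS and 74.6, 73.6 and 63.4 CPM without it, where the high treated value is that of replicate 1. The mbf1Δ response was 0.0030 (SE 0.11, adjusted p = 0.981) with that library and -0.19 (adjusted p = 0.048) without it. The gap between treated gcn4Δ and treated wild type was -0.40, SE 0.11, adjusted p = 0.00462, and it was 0.085 (adjusted p = 0.686) on TPM. The gcn4Δ fall was likewise -0.025 on TPM (adjusted p = 0.907).

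YIH1 (YCR059C, chromosome III, 223454 to 224230, minus strand), which encodes the actin-binding competitor of Gcn2 for Gcn1, fell 1.94-fold in wild type. It had 48.1, 41.3 and 36.0 CPM in treated wild type cells, against 86.3, 95.7 and 61.8 CPM in untreated ones (log2 -0.95, SE 0.18, adjusted p = 5.1e-05). Untreated replicate 3 was the low one of its group but still above all treated libraries. The fall was -0.67 (SE 0.18) in gcn2Δ and -1.08 (SE 0.18) in mbf1Δ, where treated replicate 1 was at 24.02 CPM and the other treated replicates at 40.4 and 45.1 CPM. In gcn4Δ it was -0.37 (SE 0.17, adjusted p = 0.0526), which did not pass. Without untreated gcn4Δ replicate 3 it was -0.45 (adjusted p = 0.0398). From the groups compared alone it was -0.33 (adjusted p = 0.000105), and on TPM it was 0.22, the other sign. The gcn4Δ response differed from that of wild type by 0.58 (SE 0.25, adjusted p = 0.0777), and by 0.75 (adjusted p = 0.0172) without untreated wild type replicate 3 and 0.63 (adjusted p = 0.0497) by DESeq2. The difference also passed from the groups compared alone (0.63, adjusted p = 0.0105) and by limma on TPM (0.52, adjusted p = 0.0229). The deposited length of nearly every gene was its coding length plus 400 bases, and with 200 bases assumed on each side 34.6% of the YIH1 model lies within those of the neighbours PWP2 and TAH1. The strand setting is not given in the sources used here, so reads of neighbours cannot be told apart there.

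GIR2 (YDR152W, chromosome IV, 765706 to 766503, plus strand), the RWD protein that joins Rbg2 to Gcn1, fell in every strain. Treated mutants had 27.0, 22.4 and 20.4 CPM in gcn2Δ, 21.7, 25.7 and 23.2 CPM in gcn4Δ and 26.4, 20.8 and 18.2 CPM in mbf1Δ, each group above all treated wild type libraries. Wild type had 17.6, 13.4 and 14.02 CPM with MMS, against 56.8, 56.5 and 71.3 CPM without it, a 4.12-fold fall (log2 -2.04, SE 0.14, adjusted p = 4.23e-12). The gap to treated wild type was 0.64, SE 0.14, adjusted p = 0.000562 for gcn2Δ, 0.65, SE 0.14, adjusted p = 0.000546 for gcn4Δ and 0.56, SE 0.14, adjusted p = 0.00338 for mbf1Δ. Untreated mutants had 73.3, 63.1 and 76.0 CPM in gcn2Δ, 68.5, 72.6 and 66.3 CPM in gcn4Δ and 56.2, 66.2 and 63.8 CPM in mbf1Δ, and each group overlapped untreated wild type. The responses differed from that of wild type by 0.44 (SE 0.19, adjusted p = 0.0732) in gcn2Δ, 0.49 (SE 0.19, adjusted p = 0.0467) in gcn4Δ and 0.55 (SE 0.19, adjusted p = 0.0406) in mbf1Δ. These 3 differences sit at the threshold. The gcn4Δ call was lost without untreated wild type replicate 3, treated wild type replicate 2 or 3, any untreated gcn4Δ replicate or treated gcn4Δ replicate 2 (0.36 to 0.61 over the left-out fits), and under a replicate block (0.49, adjusted p = 0.0553). The mbf1Δ call was lost without untreated wild type replicate 3, treated wild type replicate 2 or 3, untreated mbf1Δ replicate 1 or 3, or treated mbf1Δ replicate 1 (0.39 to 0.67). It was also lost under a replicate block (adjusted p = 0.0523) and from the groups compared alone (adjusted p = 0.083). By limma it was lost on TPM (adjusted p = 0.212) and centred TPM (adjusted p = 0.0613), and the gcn4Δ call was lost on TPM (adjusted p = 0.334). The gcn2Δ difference passed without treated wild type replicate 1 (0.56) or treated gcn2Δ replicate 3 (0.55), and by DESeq2 (0.45, adjusted p = 0.0462).

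The GTPase genes RBG1 (YAL036C, chromosome I, 75043 to 76152, minus strand) and RBG2 (YGR173W, chromosome VII, 843854 to 844960, plus strand) fell in every strain on the CPM scale, and less in each mutant than in wild type. RBG1 had 52.0, 63.0 and 57.1 CPM in treated gcn2Δ cells, against 219.8, 212 and 224 CPM in untreated gcn2Δ cells. Treated gcn4Δ cells had 74.2, 68.5 and 71.2 CPM, against 204, 191 and 207 CPM in untreated gcn4Δ cells. In mbf1Δ it was 43.0, 44.4 and 39.5 CPM with MMS and 223, 219.5 and 230.2 CPM without it. Wild type had 34.3, 32.7 and 35.1 CPM with MMS, against 214, 219 and 215 CPM without it, a 6.35-fold fall (SE 0.066 on the log2 scale, adjusted p = 3.51e-20). The 4 treated groups thus lay in the order gcn4Δ, gcn2Δ, mbf1Δ and wild type, and none overlapped the next. Untreated RBG1 passed no edgeR test between a mutant and wild type. By limma on uncentred TPM it was called higher in untreated gcn2Δ (0.32, adjusted p = 0.0382) and gcn4Δ (0.31, adjusted p = 0.0281). On that scale 2837 and 4213 of 5823 genes were called higher in these 2 comparisons.

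RBG2 followed the same order at lower levels. It had 34.5, 35.7 and 37.6 CPM in treated gcn2Δ cells, 49.0, 47.5 and 50.3 in gcn4Δ, 26.8, 30.3 and 30.6 in mbf1Δ and 23.2, 19.8 and 24.1 in wild type. Untreated cells had 67.5, 68.4 and 75.5 CPM in gcn2Δ, 65.8, 60.5 and 65.5 in gcn4Δ, 65.7, 77.6 and 76.7 in mbf1Δ and 76.2, 77.7 and 71.6 in wild type. The fall was 1.96-fold in gcn2Δ, 1.31-fold in gcn4Δ, 2.51-fold in mbf1Δ and 3.37-fold in wild type, with treated and untreated libraries apart in every strain. On TPM the gcn4Δ change was 0.22 (adjusted p = 0.0393), the other sign. Untreated gcn4Δ was lower than untreated wild type (log2 difference -0.23, SE 0.076, adjusted p = 0.0367). That call was lost without untreated wild type replicate 1 or 2 or any untreated gcn4Δ replicate (-0.27 to -0.19), and the value was 0.19 on TPM.

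Relative to wild type, the RBG1 response was smaller by 0.74 (SE 0.089) in gcn2Δ and by 1.18 (SE 0.088) in gcn4Δ, and that of RBG2 by 0.78 (SE 0.11) and 1.37 (SE 0.11). In mbf1Δ the differences were 0.26 (SE 0.089, adjusted p = 0.0386) for RBG1 and 0.42 (SE 0.11, adjusted p = 0.00923) for RBG2. The RBG1 call in mbf1Δ was lost in 9 of 12 fits that left out 1 library, all but those without replicate 3 of treated wild type or of either mbf1Δ group, with values of 0.23 to 0.32. It was also lost under a replicate block (adjusted p = 0.0523). By limma it was lost on TPM (adjusted p = 0.254) and on centred TPM (0.20, adjusted p = 0.0884). The mbf1Δ and gcn2Δ responses themselves differed for RBG1 by -0.48 (SE 0.087, adjusted p = 0.00175) and for RBG2 by -0.36 (SE 0.11, adjusted p = 0.0527). The RBG2 difference passed without untreated gcn2Δ replicate 3, treated gcn2Δ replicate 1, untreated mbf1Δ replicate 1 or treated mbf1Δ replicate 3 (-0.43 to -0.31). TMA46, which encodes the Rbg1 partner, fell in wild type, where its log2 change was -2.31 (SE 0.15). Its response was higher than in wild type by 0.71 (SE 0.20) in gcn2Δ cells and 1.46 (SE 0.20) in gcn4Δ cells, and the mbf1Δ difference of 0.15 (SE 0.20) did not pass. The RBG1 and RBG2 coding sequences were 66.0% identical over 46.1% of RBG1 by blastn, below the 90% identity used to mark near-identical copies.

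GCN4 (YEL009C, chromosome V, 138918 to 139763, minus strand), whose translation Gcn2 controls, had less mRNA after MMS in each of the 3 strains that carry it. Treated gcn2Δ cells had 326, 344 and 387 CPM, against 1044, 1018 and 1007 CPM in untreated gcn2Δ cells. Treated mbf1Δ cells had 326, 359 and 363 CPM, against 1040.0, 1091 and 977 CPM in untreated mbf1Δ cells. Treated wild type cells had 581, 566 and 557 CPM, against 960.5, 946 and 1007 CPM in untreated ones. The treated mutants lay together below treated wild type, with a log2 difference of -0.69 (SE 0.080, adjusted p = 2.27e-07) for gcn2Δ and -0.70 (SE 0.080, adjusted p = 3.37e-07) for mbf1Δ. Their responses differed from each other by -0.032 (SE 0.11, adjusted p = 0.918). On TPM the wild type fall was -0.13 (adjusted p = 0.277), while the falls in gcn2Δ and mbf1Δ were -0.90 and -0.84. The position of GCN4 among all tested genes ordered by response was the 26.2 percentile in wild type, 13.0 in gcn2Δ and 13.5 in mbf1Δ.

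MBF1 (YOR298C-A, chromosome XV, 877230 to 877685, minus strand), the Gcn4 coactivator, was the only member called higher after MMS on the CPM scale, in all 3 strains that carry it. On uncentred TPM limma also called GCN20 higher in every strain, GCN2 in mbf1Δ and wild type, and RBG2 in gcn4Δ. MBF1 had 1003, 1075 and 956 CPM in treated gcn2Δ cells, against 254, 313 and 243 CPM in untreated gcn2Δ cells, a 3.74-fold rise. In gcn4Δ it was 725, 722 and 672 CPM with MMS and 319, 279 and 292 CPM without it, a 2.38-fold rise. In wild type it was 667, 739.6 and 729.6 CPM with MMS and 279, 301 and 262 CPM without it, a 2.54-fold rise. Treated gcn2Δ libraries stood above all treated wild type libraries (0.51, SE 0.10, adjusted p = 0.000235), and treated gcn4Δ libraries overlapped them (-0.011, SE 0.10, adjusted p = 0.939). On TPM treated gcn4Δ was higher than treated wild type by 0.34 (adjusted p = 0.0174). The response in gcn4Δ differed from that in wild type by -0.093 (SE 0.14, adjusted p = 0.647). The assumed MBF1 model shares 24.4% of its bases with that of the neighbour MUM3.

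**Figure D3:**
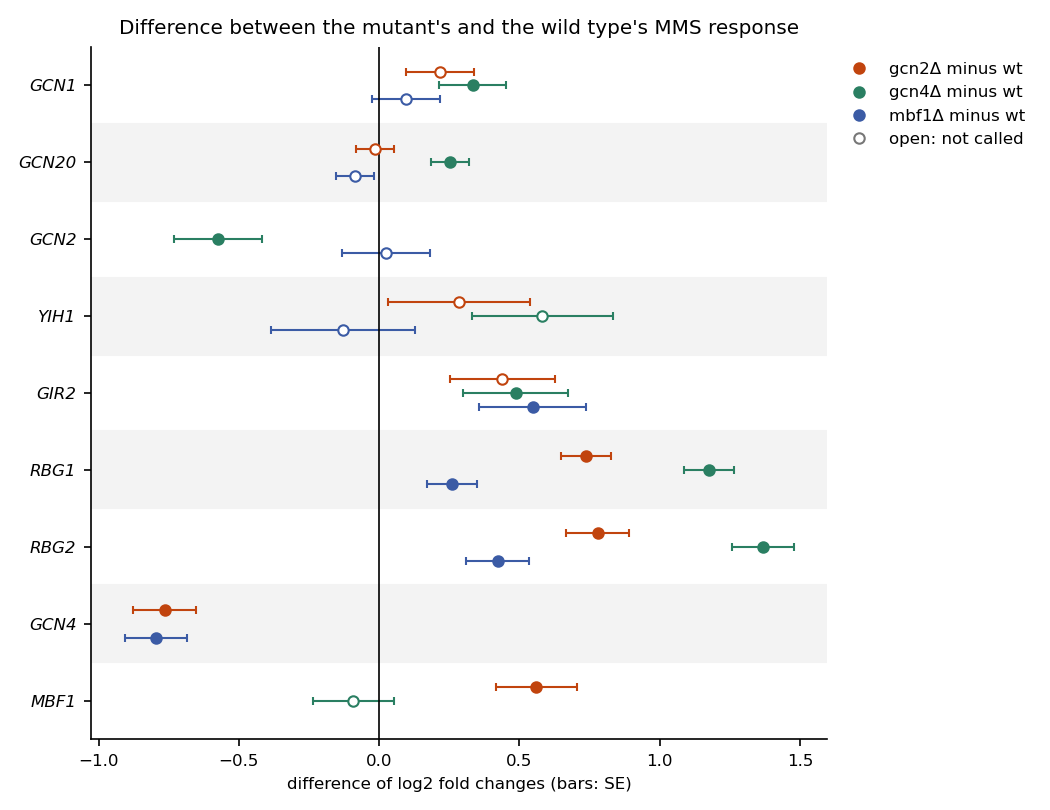
Difference between the MMS response of gcn2Δ, gcn4Δ or mbf1Δ and that of wild type (x axis, log2; bars are SE) for each gene, from edgeR; filled points passed an adjusted p of 0.05. Positive values mean a smaller fall or a larger rise in the mutant: RBG2 in gcn4Δ has the highest value, 1.37, and GCN4 in mbf1Δ the lowest, -0.80.

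By mutant, the response of 4 of 8 members in gcn2Δ differed from wild type, with RBG1, RBG2 and MBF1 higher and GCN4 lower, where 35.9% of all tested genes were called (18.6% higher, 17.3% lower). In gcn4Δ 6 of 8 differed, with RBG1, RBG2, GIR2, GCN1 and GCN20 higher and GCN2 lower, against 35.2% of genes (18.8% higher, 16.4% lower). In mbf1Δ 4 of 8 differed, with RBG1, RBG2 and GIR2 higher and GCN4 lower, against 24% of genes (11.6% higher, 12.4% lower). Between mbf1Δ and gcn2Δ only RBG1 of 7 members was called, lower in mbf1Δ, against 6.73% of genes (4.04% lower), and by DESeq2 the count was 2, RBG1 and RBG2. The 3 comparisons with wild type share the wild type libraries. In all 4 comparisons each of RBG1 and RBG2 kept its sign under every alternative that was run, TPM included.

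Without MMS, GCN1 was 1.57-fold lower in gcn4Δ than in wild type, and edgeR called members in gcn4Δ only. In untreated gcn2Δ none of 8 members was called by edgeR, with 0.429% of all genes called (0.309% lower), while 3 had an unadjusted p under 0.05 (GCN1, GCN20 and YIH1) and DESeq2 called 2 (GCN1 and GCN20), where it called 254 of 5823 genes (179 lower). Without untreated wild type replicate 3, GCN1 (-0.36) and YIH1 (-0.56) were called lower in untreated gcn2Δ, in a fit that called 1156 of 5835 genes (626 lower). In untreated mbf1Δ 0 of 8 members were called by edgeR and 0 by DESeq2, with 0.155% of genes called (0.0172% higher), and 1 (GCN20) had an unadjusted p under 0.05. In untreated gcn4Δ 3 of 8 were lower by edgeR (GCN1, RBG2 and GCN20), with 19.3% of genes called and 10.1% lower. None of the 8 was higher by edgeR, against 9.19% of genes. The count of all genes called there, 1123, depends on single libraries: it was 517 without untreated wild type replicate 1, 523 without replicate 2, 1916 without replicate 3, 705 without untreated gcn4Δ replicate 2 and 563 without its replicate 3. The GCN20 value was -0.20 (SE 0.047) and had the other sign on TPM (0.22). By limma on uncentred TPM, GCN1, RBG2 and GCN20 were not called in untreated gcn4Δ. On that scale RBG1 (0.31), GIR2 (0.57), GCN2 (0.56) and MBF1 (0.48) were called higher, where 4213 of 5823 genes were called higher. YIH1 was also called in untreated gcn4Δ without untreated wild type replicate 3 (-0.50).

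Under MMS 6 of 8 members differed between gcn2Δ and wild type, with RBG1, RBG2, GIR2 and MBF1 higher and GCN4 and GCN20 lower, against 31.2% of genes higher and 25.5% lower (56.7% called). The GCN20 gap was -0.12, SE 0.047, adjusted p = 0.0351. It was lost without treated wild type replicate 2 or 3 or treated gcn2Δ replicate 1 or 3 (-0.13 to -0.085), and was 0.20 on TPM. It also did not pass with the ribosomal RNA locus left out (adjusted p = 0.0728) or from these groups alone (adjusted p = 0.0833). In gcn4Δ 5 of 8 differed, with RBG1, RBG2 and GIR2 higher and GCN1 and GCN2 lower, against 22.5% higher and 21.6% lower (44% called). In mbf1Δ 5 of 8 differed, with RBG1, RBG2 and GIR2 higher and GCN4 and GCN20 lower, against 21.6% higher and 19.8% lower (41.4% called). There the GCN20 gap of -0.20 was -0.012 on TPM (adjusted p = 0.934) and did not pass from these groups alone (adjusted p = 0.0502). RBG1 was higher than in treated wild type by 1.69-fold in gcn2Δ, 2.10-fold in gcn4Δ and 1.24-fold in mbf1Δ. The corresponding RBG2 values were 1.61-fold, 2.19-fold and 1.31-fold.

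Because the proteins bind each other, the ratio of their mRNAs was compared within each library, which does not depend on the scaling. The 6 ratios of TPM were tested between MMS and untreated libraries by a two-sided exact permutation of treatment within each strain, adjusted over the 6. GCN20 over GCN1 was 1.55, 1.78 and 1.86 in treated wild type libraries, against 0.833, 0.839 and 0.912 in untreated ones. Over the 4 strains it rose by 0.89 on the log2 scale (1.85-fold, exact p = 1.25e-05, the smallest these permutations can give, adjusted p = 7.5e-05), and treated and untreated libraries did not overlap in any strain. GCN2 over GCN1 was 0.260, 0.272 and 0.307 in treated wild type, against 0.113, 0.124 and 0.152 in untreated wild type. Over the 3 strains with GCN2 the rise was 0.81 (exact p = 0.00025, the smallest possible, adjusted p = 0.000375). It was 0.26 in gcn4Δ, 1.05 in mbf1Δ and 1.12 in wild type. Untreated gcn4Δ libraries started higher, at 0.211, 0.229 and 0.232, than untreated wild type, and the difference between strains was not tested.

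YIH1 over GCN1 rose by 0.34 (exact permutation p = 0.0015, adjusted p = 0.0015), with 0.44 in gcn2Δ, 0.51 in gcn4Δ, 0.080 in mbf1Δ and 0.33 in wild type, and its libraries overlapped in mbf1Δ and wild type. The ratio of the other Gcn1-binding regulator moved the opposite way: GIR2 over GCN1 fell by 0.60 (exact permutation p = 3.75e-05, adjusted p = 0.000113). It was 0.260, 0.270 and 0.301 in treated wild type, against 0.419, 0.433 and 0.599 in untreated wild type, and in mbf1Δ the treated and untreated libraries overlapped. GIR2 over RBG2, the subunits of 1 complex, fell by 0.57 (exact permutation p = 0.000325, adjusted p = 0.00039). Its change was -0.63 in gcn2Δ, -1.18 in gcn4Δ, -0.20 in mbf1Δ and -0.28 in wild type. In gcn4Δ it was 0.558, 0.585 and 0.692 with MMS and 1.28, 1.32 and 1.55 without it, while in mbf1Δ and wild type treated and untreated libraries overlapped. TMA46 over RBG1 rose by 0.41 (exact permutation p = 0.000225, adjusted p = 0.000375), with treated and untreated libraries overlapping in gcn2Δ and mbf1Δ. All 6 tests pool the strains, and 3 libraries against 3 within a strain cannot go below an exact p of 0.1.

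**Figure D4:**
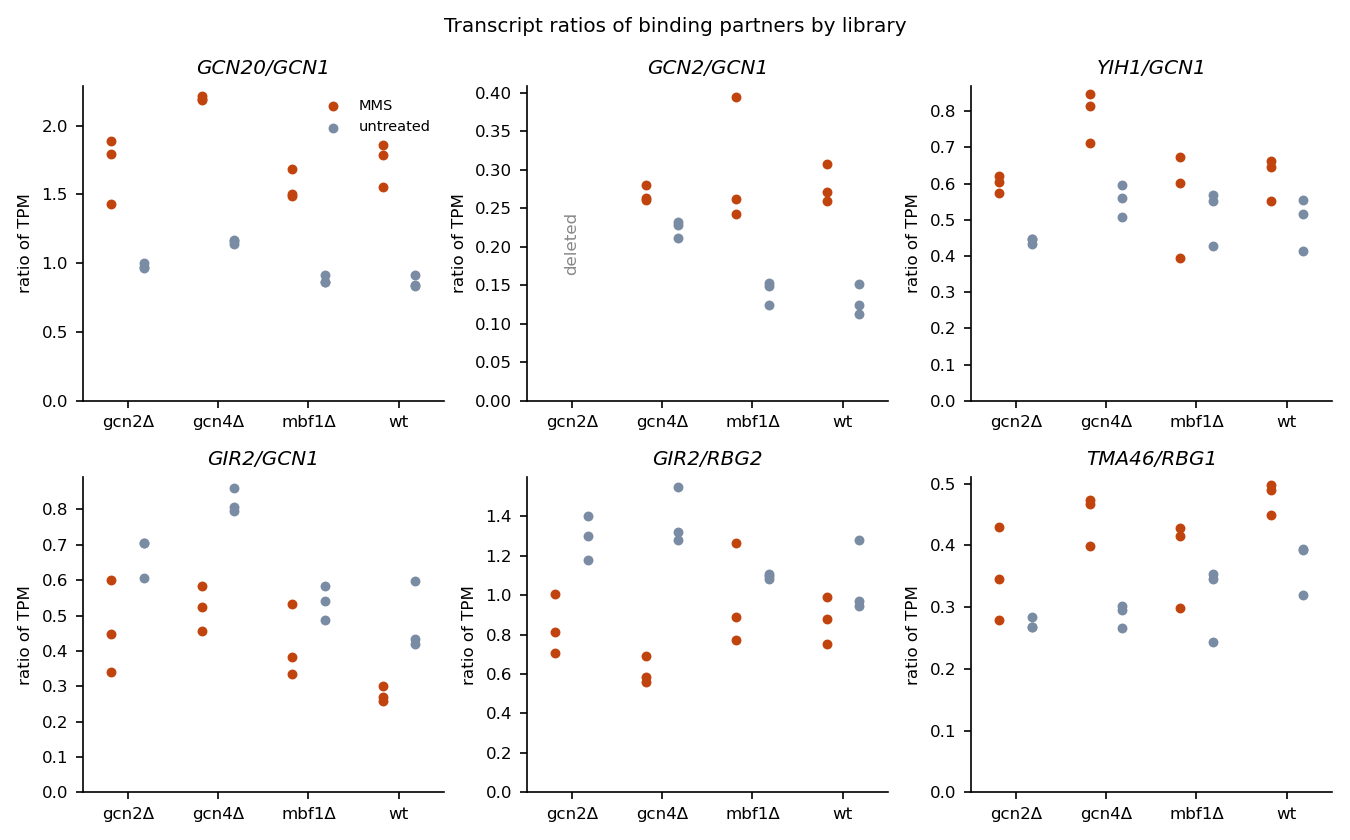
Ratio of TPM (y axis, linear, from 0) for 6 pairs of genes whose proteins bind each other, in gcn2Δ, gcn4Δ, mbf1Δ and wild type (x axis), with MMS-treated libraries (orange) left of untreated ones (grey-blue); each point is 1 library. GCN20 over GCN1 in gcn4Δ is 2.18 to 2.22 with MMS and 1.14 to 1.17 without it.

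Other genes of the pathway were counted from lists, beside the 41.2% of all tested genes lower and 42% higher in wild type. The substrate side fell in wild type: all 10 genes for eIF2, its exchange factor eIF2B, eIF5 and the assembly factor Cdc123 were lower (median -1.28), from GCD11, eIF2γ, at -2.52 (SE 0.055) to CDC123 at -0.33 (SE 0.080). In the mutants the response of several of them was smaller: 5 of 10 were higher than wild type in gcn2Δ, 5 in gcn4Δ and 4 in mbf1Δ, and none was lower, where 18.6%, 18.8% and 11.6% of all genes were higher. TIF5, eIF5, differed most in gcn2Δ, by 0.92 (SE 0.086). The ribosomal P-stalk, which activates Gcn2, was lower in 5 of 5 genes in wild type (median -2.74), from RPP1B at -3.11 (SE 0.15) to RPP2A at -2.38 (SE 0.13). In gcn4Δ 5 of 5 responses were higher than in wild type (median 1.45), where 18.8% of all genes were higher. In gcn2Δ 1 of 5 was called, as higher, against 18.6% of all genes. In mbf1Δ the median difference was -0.30 with an adjusted p of 0.188 or more for each by edgeR. Of 9 factors acting at collided ribosomes, 5 were higher and 4 lower in wild type, from the ribosome quality control gene RQC1 at 0.72 (SE 0.054) to the ribosomal protein gene ASC1 at -3.28 (SE 0.20). Among these, ASC1 differed from wild type by 2.05 (SE 0.27) in gcn4Δ, and SLH1, a helicase that splits collided ribosomes, by -0.32 (SE 0.10).

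Of 8 genes for turnover of the Gcn4 protein, 7 were higher in wild type (median 0.79), led by PCL5, the cyclin for Gcn4 phosphorylation and itself a Gcn4 target, at 2.45 (SE 0.12), and SSN3 was lower at -0.63 (SE 0.074). The PCL5 response was below that of wild type in all mutants, with a difference of -2.52 (SE 0.16) for gcn2Δ, -2.67 (SE 0.16) for gcn4Δ and -1.60 (SE 0.16) for mbf1Δ, while CDC53, the cullin of the ligase that acts on Gcn4, was higher in gcn2Δ by 0.29 (SE 0.069) and in mbf1Δ by 0.36 (SE 0.069). Of 6 other regulators of Gcn2 or of eIF2 phosphorylation, 2 were higher and 4 lower in wild type, from the chaperone HSP82 at 2.40 (SE 0.083) to its near-identical copy HSC82 at -1.06 (SE 0.069), whose reads cannot be fully separated. Of the known Gcn4 targets, 6 biosynthesis genes were listed: all were higher in wild type (median 3.27), and the response of all 6 was lower in each mutant than in wild type, with a median difference of -3.43 in gcn2Δ, -2.89 in gcn4Δ and -2.59 in mbf1Δ. Over all tested genes the response was called lower for 17.3% in gcn2Δ, 16.4% in gcn4Δ and 12.4% in mbf1Δ. In gcn4Δ itself 3 of the 6 were still higher after MMS, ARG1 by 1.36 (SE 0.088), ARG4 by 1.498 (SE 0.054) and LYS1 by 1.45 (SE 0.066), and 3 were lower. On TPM the wild type sign was the other way for GCN3 and CDC123 of the eIF2 list, SYH1 of the collided ribosome list and GLC7 and ACT1 of the other regulators. All of these lists were chosen with earlier results of these data known.

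Members were also described by the genes whose log2 CPM across libraries was most like theirs, as Pearson's r over the 24 libraries, or the 18 libraries of the strains that carry GCN2, GCN4 or MBF1. The libraries share treatment and strain, so r is high for many genes. RBG1 was most like ERB1 (0.998), UTP21 (0.998) and NOP58 (0.997), which encode ribosome assembly factors. RBG2 was most like RRP3 (0.991), TRM10 (0.983) and PRT1 (0.977), an RNA helicase of ribosome assembly, a tRNA methyltransferase and a subunit of eIF3. GIR2 was most like CNS1 (0.992), URM1 (0.992) and SDO1 (0.990), of which CNS1 encodes a co-chaperone and SDO1 a ribosome maturation factor. GCN1 was most like NUP192 (0.991), RAP1 (0.981) and UPC2 (0.980), a nuclear pore protein, a transcription factor of ribosomal protein genes and a sterol regulator. GCN4 was most like PUS1 (0.994), ADH3 (0.993) and DED81 (0.992), a pseudouridine synthase, a mitochondrial alcohol dehydrogenase and asparaginyl-tRNA synthetase. MBF1 was most like ERO1 (0.993), HSP82 (0.992) and UMP1 (0.991), an oxidase of protein folding, the Hsp90 chaperone and a proteasome assembly factor. The nearest patterns to GCN20 were PRS2 (0.901), MIT1 and RLM1, those to GCN2 were TUS1 (0.960), ALY1 and MPH1, and those to YIH1 were PTC2 (0.968), PMT2 and FTR1. Among the members themselves RBG1 had an r of 0.970 with GIR2 and 0.965 with RBG2, and GCN4 had -0.976 with MBF1 over the 12 libraries of gcn2Δ and wild type, which carry both.

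The 500 bases before each start codon were searched on both strands for 5 short motifs, chosen after the values had been seen. The Gcn4 site TGACTCA was in 0 of the 9 member windows, against 4.11% of 5821 windows of all genes. The ribosome biogenesis motif PAC, GCGATGAG, was in that of RBG2 (4.98% of windows), and the related motif RRPE (spelled in the sites below) in those of GCN1 and RBG1 (5.21%). The heat shock element half-pair TTCNNGAA was in those of MBF1, GCN20, YIH1 and GIR2 (21.5%), and the stress response element AGGGG in those of MBF1, GCN2 and RBG1 (34.5%). The sites below are given 5′ to 3′ on the gene's strand in R64 from RefSeq, with the motif in capitals, for the members with the largest falls and for the riser MBF1. They lie at chrI:76303-76332 (minus), chrVII:843726-843755 (plus), chrVII:131400-131429 (plus), chrIV:765485-765514 (plus), chrXV:877842-877871 (minus) and chrXV:877829-877858 (minus).
RBG1 RRPE: gcttaaagctTGAAAAATTTtttcacatca
RBG2 PAC: tcgtgataataGCGATGAGatttaaaccca
GCN1 RRPE: tacgtacgaaTGAAAAATTTgaataattta
GIR2 heat shock element: tatgtatatttTTCCCGAAtgtcctaataa
MBF1 heat shock element: tcgttgcctctTTCATGAAcgggcgcccct
MBF1 stress response element: catgaacgggcgCCCCTtgacggtggtggt
The AGGGG motif of MBF1 stands there as its reverse complement, CCCCT, and the MBF1 windows overlap. TTCNNGAA occurs before both GIR2, which fell 4.12-fold in wild type, and MBF1, which rose 2.54-fold. A match is a description of the letters and shows no binding.

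The authors' deposited table for each mutant gives the same sign as the fit above for the called response differences. For GCN4 the authors' deposited table has -0.711 in gcn2Δ and -0.761 in mbf1Δ on the log2 scale. For RBG2 the authors' deposited table has 0.738 in gcn2Δ, 1.35 in gcn4Δ and 0.328 in mbf1Δ, and for RBG1 0.742, 1.15 and 0.197. For GIR2 the authors' deposited table gives an adjusted p of 0.0509 in gcn2Δ, 0.0284 in gcn4Δ and 0.0334 in mbf1Δ, on the same side of 0.05 as here.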

How the data were processed

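RNA from 24 yeast libraries (8 groups of 3) was poly-A selected, reverse transcribed with random hexamers and sequenced in pairs, per the labels' protocols. The submitters' processing notes name FastQC 0.11.9, fastp, Salmon 1.10.1, DESeq2 1.38.3 and the build R64; their settings and strand are not given in the sources used here. The deposited values are Salmon's estimated counts and TPM per gene, with a length and an effective length in bases, per the file headers. The authors' deposited tables, 1 per mutant, give per gene a mean of normalized counts (a score here), a p-value raw and adjusted, and the log2 fold change and SE, per the file headers.

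Estimated counts were rounded and fitted with edgeR 4.0.16 (R 4.3.3; TMM, filterByExpr with a minimum count of 10, 1 coefficient per group over all 24 libraries, 16 residual degrees of freedom), which kept 5824 of 5912 genes. The biological coefficient of variation was 8.49%. P-values of the quasi-likelihood test were adjusted by Benjamini-Hochberg across the tested genes in each of 14 contrasts, and changes with an adjusted p under 0.05 are called. The SE is the one the test statistic implies. The gene deleted in a strain was dropped from its contrasts. Ratios used TPM without a pseudocount, and limma 3.58.1 used log2(TPM + 1). The lowest count in a library was 6549 for GCN1 and 215 for GIR2, so depth limits GIR2 most.

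Gene names and positions come from the RefSeq table and genome for R64, which matched 5909 of 5912 IDs; 5907 deposited lengths equal the coding length plus 400 bases. No member has a near-identical copy (at least 90% identity over 50% of its length by blastn 2.17.0). The 9 members, the pathway lists and the tests were chosen with earlier results of these data known. The genes named are all members, the 3 nearest patterns of each, TMA46, and the highest and lowest called gene of each list in the wild type response and in each response difference, from which the text gives a selection. The 3 libraries of a group are labelled as biological replicates; the lowest chi-square per degree of freedom between replicates was 4.33, so none was counted as 1 library deposited again. Alternatives were RLE size factors, no filter on low counts, DESeq2 1.42.0, limma on TPM with and without centring, only the groups compared, the ribosomal RNA locus left out, a replicate block, counts per deposited length for the ratios, and each replicate left out in turn.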

Additional observations from a re-analysis of the deposited data

Results flagged for a closer look

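Each result below is a response to MMS that differed between a mutant and wild type, or between mutants, by edgeR's test of the difference itself (adjusted p under 0.05). In gcn2Δ the difference from wild type was 0.74 for RBG1, 0.78 for RBG2, 0.56 for MBF1 and -0.76 for GCN4 on the log2 scale. In gcn4Δ it was 1.18 for RBG1, 1.37 for RBG2, 0.49 for GIR2, 0.33 for GCN1, 0.25 for GCN20 and -0.57 for GCN2. In mbf1Δ it was 0.26 for RBG1, 0.42 for RBG2, 0.55 for GIR2 and -0.80 for GCN4. Between mbf1Δ and gcn2Δ it was -0.48 for RBG1. On uncentred TPM limma did not call the gcn4Δ differences of GIR2, GCN1, GCN20 and GCN2 or the mbf1Δ differences of RBG1 and GIR2. Nor did it call RBG1 between mbf1Δ and gcn2Δ, and all of these kept their sign. On centred TPM limma did not call the gcn2Δ difference of MBF1 (adjusted p = 0.0562) or the mbf1Δ differences of RBG1 (adjusted p = 0.0884) and GIR2 (adjusted p = 0.0613). The gcn4Δ libraries also had the lowest share of ribosomal RNA locus counts. The 6 gcn4Δ calls remained with that locus left out, which drops only its own counts. The part of the lower share in these calls was not tested.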

How the results depend on the processing

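The direction of every called member change was kept under RLE size factors, DESeq2, no filter on low counts, centred TPM, the groups compared alone, the ribosomal RNA locus left out and the replicate block. Uncentred TPM, where the median of all genes shifts, reversed 14 values that were called on at least 1 of the scales (sign changes of values called on neither, such as YIH1 after MMS in gcn4Δ, are not among them): after MMS, GCN2 (0.45) and GCN20 (0.37) in wild type, GCN20 (0.36) and YIH1 (0.0075) in gcn2Δ, RBG2 (0.22) in gcn4Δ and GCN20 (0.38) in mbf1Δ; untreated gcn4Δ against wild type, RBG1 (0.31), GCN20 (0.22) and RBG2 (0.19); treated gcn2Δ, GCN20 (0.20) and GCN1 (0.23); treated gcn4Δ, GCN2 (0.085), GCN1 (0.14) and MBF1 (0.34). Leaving out treated mbf1Δ replicate 1 reversed the GCN2 response there (-0.19 to 0.11 over the left-out libraries).

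The count of members whose gcn4Δ response differed was 6, and 3 on uncentred TPM, 5 under the replicate block, 7 by DESeq2, 7 from the groups compared alone and 4 to 6 with 1 library left out. For mbf1Δ it was 4, and 2 under the replicate block, 2 on TPM, 2 on centred TPM and 2 to 4 with 1 library left out. Between mbf1Δ and gcn2Δ it was 1, and 2 with RLE, the replicate block, the ribosomal RNA locus left out, DESeq2 or centred TPM, 0 on TPM and 1 to 2 with 1 library left out. For untreated gcn2Δ it was 0, and 2 by DESeq2, 3 on TPM and 0 to 2 with 1 library left out. The 6 ratios kept their direction and call under every alternative run. Deviations of same-numbered libraries had an r of -0.55 to 0.54 (median -0.019) over 28 pairs of groups, 0 with every r above 0.1. No pairing by number was detected, and a modest one is not excluded with 3 libraries per group. The difference between the gcn2Δ and the wild type response of MBF1 was 0.60 on centred TPM, with an adjusted p of 0.0562 by limma. Over all genes, untreated gcn2Δ had 25 calls, against 1156 without untreated wild type replicate 3, 6 without its replicate 1, 10 without its replicate 2, 6 without untreated gcn2Δ replicate 1, 9 without its replicate 3, 254 by DESeq2, 2863 on TPM, 75 on centred TPM and 12 from the groups compared alone. Untreated mbf1Δ had 9, against 17 by DESeq2, 5 from the groups compared alone and 5 without untreated mbf1Δ replicate 3. On TPM untreated gcn4Δ had 4290 (1123 here), treated gcn4Δ 3919 (2565 here), and the response differences 1298 for gcn2Δ (2093 here), 1319 for gcn4Δ (2048 here), 792 for mbf1Δ (1396 here) and 128 for mbf1Δ minus gcn2Δ (392 here, 101 from the groups compared alone, and 231, 221 and 260 without untreated gcn2Δ replicate 1, untreated mbf1Δ replicate 2 or its replicate 3). Treated mbf1Δ had 2411, against 1561 from the groups compared alone. On TPM 71.3% of the wild type calls were higher, against 50.5% here; for untreated gcn2Δ and gcn4Δ it was 99.1% and 98.2%, against 28% and 47.6%. The causes were not tested.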
